A study of Arabidopsis thaliana with 17 samples.

Results

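The data described here are the transcript levels of bioprinted constructs made from differentiated Arabidopsis thaliana root tissue, compared between the day of printing (day 0) and 1 day later (day 1). The genes are those with a pooled level of at least 1 FPKM (fragments scaled to transcript length and to the mapped fragments of a library) in either group, which left 17993 of the 33201 rows of the deposited group table. The study made constructs from root cells by bioprinting and followed their RNA, with isolated cells as controls. Of its 17 libraries, 6 enter the comparison, 3 of constructs at day 0 and 3 at day 1. Isolated cells of the same differentiated tissue (3 libraries) and constructs at day 3 (2 libraries) are given only as levels for orientation. Every group, controls included, carried the same transgene, pSCR:SCR-mCherry, in which the promoter of SCARECROW (SCR), active in the endodermis and its stem cells, drives a fusion of SCR with a red fluorescent protein. The design text names 3 independent experiments, and the labels give no age of the plants. RNA was selected for poly(A) tails.

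Isolating root cells means digesting their walls with enzymes, and such a treatment is known to induce wounding, jasmonate, osmotic and heat shock genes within minutes to hours. A root cell taken out of its tissue also loses its neighbours, and in culture it may rebuild its wall, change its identity or re-enter the cell cycle. Entry into the cycle is preceded by the making of ribosomes in the nucleolus and by genes of DNA replication under E2F factors, while cyclins of the B type mark mitosis.

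In the 6 libraries, the values of a library summed to 755476 ± 16065 FPKM at day 0 and 725576 ± 47439 at day 1 (SD, n = 3 each, exact two-sided permutation p = 0.5). Genes at 1 FPKM or more numbered 16138 ± 316 at day 0 and 16070.0 ± 1128 at day 1 (exact permutation p = 1.0). The 10 highest values held 4.97% ± 0.388 of the sum at day 0 and 6.94% ± 0.562 at day 1, without overlap (exact permutation p = 0.1, the smallest that 3 against 3 libraries allow, and 0.4 after adjustment over 4 measures). Read counts were not used here, so the depth behind a value is unknown. The library columns could not be matched gene by gene to the group table, since values on the same line correlated with the pooled level at only r = 0.195 to 0.347 across 17 libraries. A gene is therefore given by its level in each group as pooled by the authors, with no SD, and its test is the q-value of the authors' deposited table. The pooled levels summed to 927340 FPKM at day 0 and 814415 at day 1, each above every library of its group.

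**Figure D1:**
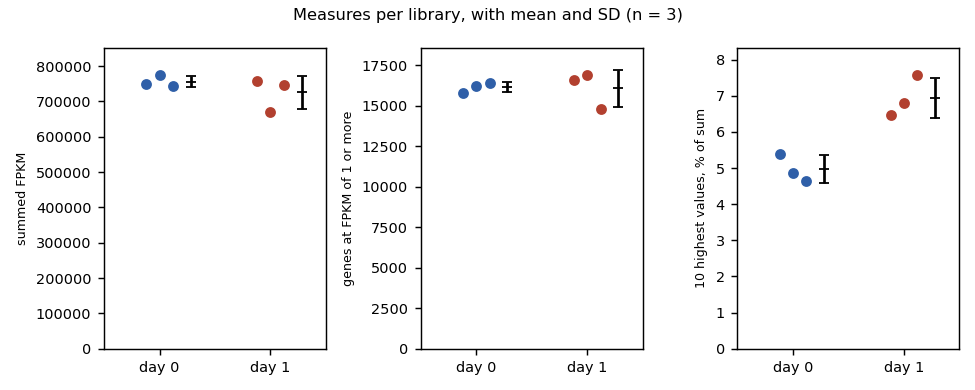
Summed FPKM, number of genes at 1 FPKM or more and percent of the sum in the 10 highest values, for each of 3 libraries at day 0 (blue) and 3 at day 1 (red), with the mean and SD beside them. The day 1 libraries lie above all day 0 libraries in the share of the 10 highest values, with means of 6.94% and 4.97%, and overlap them in the other measures.

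Of the 17993 genes, 5865, or 32.6%, were called changed at q under 0.05 in the authors' deposited table. They split evenly, with 2917 genes (16.2%) higher and 2948 (16.4%) lower at day 1. Over all tested genes the log2 ratio had a median of 0.06, and rescaling both groups to the same FPKM sum shifted it by 0.187. Among called genes it was 1.44 for those that rose and -1.63 for those that fell. Among genes called higher, 712 were at least 4-fold and 113 at least 16-fold higher, and among those called lower, 1017 and 77 were that much lower. Genes that fell had a median of 22.1 FPKM at day 0 and 7.07 at day 1, whereas genes that rose had a median of 5.00 and 14.7 FPKM. The call itself rests on these levels. In groups that took no part in the call, the genes that fell had a median of 26.6 FPKM in isolated cells and 4.27 in day 3 constructs, and the genes that rose 4.83 and 17.39 FPKM.

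The share of genes called was lower among weakly expressed genes, with 23.7% called at a mean below 1 FPKM and 26.4% between 1 and 3, against 34.2 to 35.0% in every bin above. Just inside the minimum, at 1 to 1.1 FPKM in the higher group, 197 genes were tested and 20 had a q under 0.05. Just outside it, at 0.9 to 1 FPKM, 36 of 280 did. A gene that reached the minimum in 1 group alone could be tested in that direction only. This holds for members of many lists below, also where no count is given. The lowest q of the table, 0.000551, is shared by 2182 called genes. In the authors' deposited table it is the q-value held by every gene said below to have risen or fallen, unless another is printed. Levels are pooled FPKM, written as day 0 to day 1. Counts of called members are to be read beside the shares over all tested genes, 16.2% higher and 16.4% lower.

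**Figure D2:**
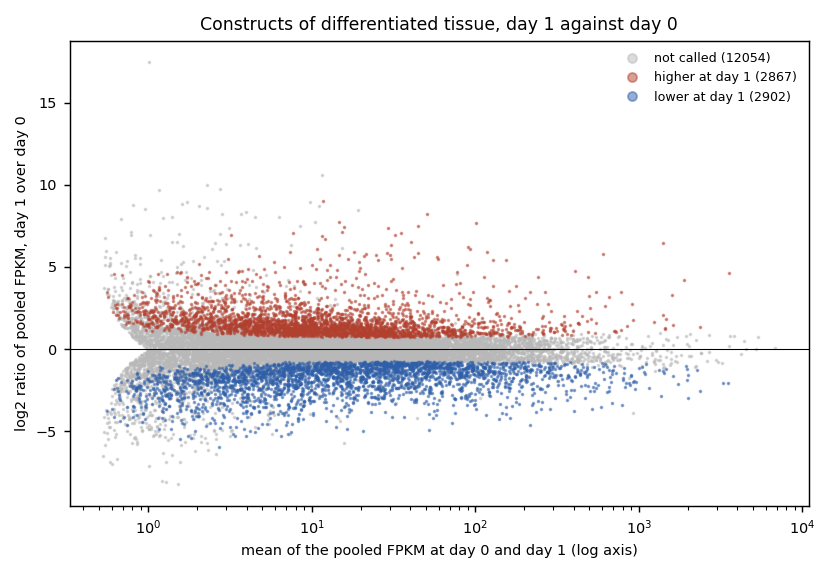
Log2 ratio of pooled FPKM, day 1 over day 0, against the mean FPKM of both groups on a log axis, 1 point per gene, with genes called higher in red and lower in blue. Genes listed at 0 in either group have no ratio and are not drawn, which leaves fewer called points than the 2917 higher and 2948 lower calls. Calls in both directions are found at all levels.

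Among the 12 largest rises of genes with a symbol and at least 10 FPKM, cell wall, defence and vascular genes stood side by side. EARLI1 (AT4G12480), a proline-rich wall protein with a lipid-transfer domain, rose from 0.989 to 201, a 203-fold difference, after 0.989 in isolated cells and before 334 at day 3. PUM9 (AT1G35730), an RNA-binding protein of the Pumilio family, rose from 0.500 to 88.5 and was at 23.9 at day 3. A cell wall peroxidase that makes hydrogen peroxide, PRXCB (AT3G49120), rose from 31.0 to 2782. GASA5 (AT3G02885), a small peptide of the gibberellin-regulated family, rose from 0.889 to 80.1, and OSM34 (AT4G11650), an osmotin of the pathogenesis-related kind, from 2.32 to 114. CLE44 (AT4G13195), precursor of the peptide TDIF that maintains vascular stem cells, rose from 0.896 to 48.4. LBD4 (AT1G31320), a regulator of vascular cell division, rose from 0.807 to 41.2. The remaining members of the 12 were JAL22 (AT2G39310), a jacalin-type lectin that rose from 3.84 to 234, the camalexin enzyme CYP71A12 (AT2G30750), which rose from 21.3 to 1196, and MAKR4 (AT2G39370), a membrane protein of lateral root formation, which rose from 0.195 to 23.03 (q = 0.00418 in the authors' deposited table). ESE3 (AT5G25190), an ERF-type factor, rose from 0.759 to 42.2. GolS3 (AT1G09350), which makes galactinol, rose from 0.540 to 29.1 and was at 3.62 at day 3.

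In FPKM itself, the largest rise was that of TI1 (AT2G43510), a trypsin inhibitor of the defence repertoire, which rose from 279 to 6875 and was the strongest of the genes named here at day 1. GSTF7 (AT1G02920), a glutathione S-transferase induced by pathogens, followed with a rise from 194 to 3618, and PRXCB was next. The largest drop of a called gene was in COR47 (AT1G20440), a dehydrin, from 5701 to 1345 (q = 0.0201 in the authors' deposited table). It is listed at 0 in isolated cells. AT2G23120, a late embryogenesis abundant protein, fell from 5291 to 1264 from a level of 5711 in isolated cells. An exact 0 can be a failed estimate in this table: the ER body glucosidase PYK10 (AT3G09260) is listed at 796 at day 0, 0 at day 1 and 2906 at day 3, with a q of 1 in the authors' deposited table. Of the tested genes, 94 are listed at 0 at day 0 and 76 at day 1, and no fold is given for them.

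The 12 largest drops included stress regulators, phloem and growth genes. HSFA6B (AT3G22830), a heat shock factor that also acts in abscisic acid signalling, fell from 100.5 to 3.33. WRKY40 (AT1G80840), an early repressor in defence, fell from 219.8 to 14.0, and ERF13 (AT2G44840), an ethylene response factor, from 69.9 to 4.02. The sucrose loader of the phloem companion cells, SUC2 (AT1G22710), fell from 23.3 to 1.11. FAMT (AT3G44860), a methyltransferase of farnesoic acid, fell from 265 to 14.1, and CAMBP25 (AT2G41010), a calmodulin-binding protein of osmotic stress, from 105 to 5.73. HMT3 (AT3G22740), a homocysteine methyltransferase, fell from 26.7 to 1.596, and sks16 (AT2G23630), a relative of multicopper oxidases, from 10.3 to 0.433. The wall enzyme XTH21 (AT2G18800) fell from 13.9 to 0.383 (q = 0.00183) and the peptide gene CLE2 (AT4G18510) from 12.7 to 0.334 (q = 0.0185, both in the authors' deposited table). At day 3 these 10 genes were between 0 and 5.33 FPKM.

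**Figure D3:**
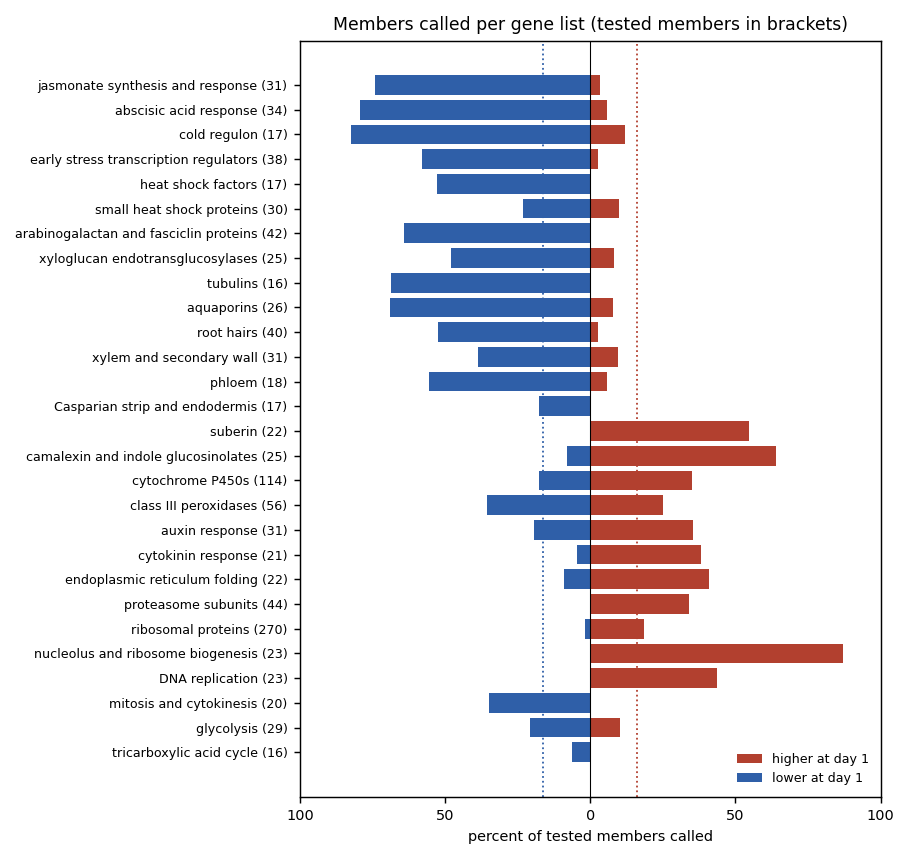
Percent of tested members called higher (red, right) and lower (blue, left) at day 1 for 28 gene lists, with the number of tested members in brackets. The dotted lines mark the shares over all tested genes, 16.2% higher and 16.4% lower. Stress hormone, wall and membrane lists extend far to the left and the nucleolus, suberin and camalexin lists far to the right.

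Jasmonate is the wound hormone made from plastid lipids, and its own repressors, the JAZ proteins, are among its fastest targets. Of 33 genes of jasmonate synthesis and response, 31 were tested, 23 fell and 1 rose, with a median log2 ratio of -2.42 against 0.06 over all genes. ACX1 (AT4G16760) of the list was not called (q = 0.457 in the authors' deposited table). The drop included several genes of the synthesis pathway. The lipoxygenases LOX3 (AT1G17420) and LOX4 (AT1G72520), which open it, fell from 31.1 to 1.88 and from 12.01 to 0.890. AOS (AT5G42650), allene oxide synthase, fell from 135 to 16.7, and AOC3 (AT3G25780), an allene oxide cyclase, from 409 to 42.3. CYP94C1 (AT2G27690), which inactivates the active hormone, fell from 6.61 to 0.365. CYP94B3 (AT3G48520), which catalyses an earlier step of that inactivation, was at 404 and 331 (q = 0.624 in the authors' deposited table). Among 11 tested JAZ genes, 8 fell and none rose. JAZ1 (AT1G19180) fell from 420.4 to 79.7, JAZ5 (AT1G17380) from 22.2 to 2.41, JAZ10 (AT5G13220) from 158 to 19.6, JAZ8 (AT1G30135) from 89.7 to 15.5 and TIFY7 (AT1G70700), also named JAZ9, from 77.7 to 9.63. JAZ12 (AT5G20900) was at 122 and 125 (q = 0.966 in the authors' deposited table). The list had a median of 89.7 FPKM in isolated cells, 77.7 at day 0, 16.7 at day 1 and 8.28 at day 3. With bulk samples, fewer cells of a type and less RNA per cell cannot be told apart, which holds for every level given here.

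Abscisic acid, the hormone of water shortage, and cold induce overlapping sets of protective proteins. Of 34 tested genes of the abscisic acid response (of 40 listed), 27 fell and 2 rose, with a median log2 ratio of -1.80. NCED3 (AT3G14440), which catalyses the committed step of the hormone's synthesis, fell from 32.1 to 3.52. Proteins that protect cells from drying fell as well, the dehydrin ERD10 (AT1G20450) from 3579.9 to 453 and LTI78 (AT5G52310), also known as RD29A, from 414 to 17.01. LEA4-5 (AT5G06760), a late embryogenesis abundant protein, fell from 274 to 18.5, and HVA22D (AT4G24960) from 533 to 43.1. HB-12 (AT3G61890), a homeobox factor of the same response, fell from 26.7 to 4.88. The hormone's exporter ABCG25 (AT1G71960) fell from 3.39 to 0.261. LEA14 (AT1G01470) did not follow, at 1214 and 1824 (q = 0.288 in the authors' deposited table) and 2674 at day 3. Of 17 tested genes of the cold regulon, 14 fell and 2 rose. COR413-PM1 (AT2G15970), a membrane protein of the cold response, fell from 1082 to 94.2, and DDF1 (AT1G12610), a DREB-type activator, from 28.1 to 2.202. The members that rose were GolS3, described above, and CPL1 (AT4G21670), a phosphatase that represses stress genes, which rose from 4.15 to 19.8. P5CS1 (AT2G39800), the rate-limiting enzyme of proline synthesis, fell from 106 to 10.6. GolS2 (AT1G56600), a drought-inducible galactinol synthase, fell from 47.3 to 6.19, whereas GolS1 (AT2G47180) was at 313 and 335 (q = 0.908 in the authors' deposited table) after 31.3 in isolated cells.

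DREB-type activators bind the core CCGAC of the C-repeat or dehydration-responsive element. The promoter of LTI78, the 250 bases upstream of its annotated start, is printed because it holds 3 such cores (in capitals) and LTI78 had the largest drop of the cold list among members at the lowest q. It is taken from RefSeq TAIR10.1, plus strand, chr5:21240467-21240716.
LTI78: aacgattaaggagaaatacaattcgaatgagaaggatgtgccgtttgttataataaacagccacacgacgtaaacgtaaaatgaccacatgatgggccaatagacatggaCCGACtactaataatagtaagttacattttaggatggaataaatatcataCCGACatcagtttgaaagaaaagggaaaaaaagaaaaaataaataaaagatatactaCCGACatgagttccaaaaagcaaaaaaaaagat
On either strand, the core was present in 5 of 17 promoters of the cold list (29.4%), in 13.4% of 17427 promoters of tested genes, in 12.5% of those called higher and in 14.7% of those called lower. A match is a description of the letters and no sign that the site is used.

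Early regulators of stress, among them WRKY, ERF and zinc finger factors that are induced within minutes of wounding, were lower at day 1. Of 38 tested, 22 fell and 1 rose, with a median log2 ratio of -1.35. Beside WRKY40 and ERF13, WRKY46 (AT2G46400) fell from 21.2 to 3.05, the NAC factors NAC019 (AT1G52890) and ATAF1 (AT1G01720) from 59.6 to 8.64 and from 867 to 148, and the zinc finger gene SZF1 (AT3G55980) from 43.1 to 8.46. RRTF1 (AT4G34410), a redox-responsive ERF, fell from 131 to 17.01. In isolated cells RRTF1 was at 248, WRKY40 at 385 and ATAF1 at 1396 FPKM, each above its day 0 level. For isolated cells against day 0, the authors' deposited table gives q = 0.0311 for RRTF1, 0.0757 for WRKY40 and 0.249 for ATAF1. Of these genes, only RRTF1 passed the q threshold used for calls in that comparison. ATAF2 (AT5G08790) was at 1528 and 945 (q = 0.293 in the authors' deposited table). Among 24 tested ERF-named factors, 9 fell and none rose, among them ERF2 (AT5G47220) from 89.9 to 12.8 and ERF-1 (AT4G17500) from 497 to 165. The WRKY family as a whole was split, with 11 of 53 higher and 14 lower. WRKY57 (AT1G69310) rose from 3.23 to 16.4, while WRKY30 (AT5G24110) fell from 7.43 to 0.506. In the MYB family 23 of 60 fell and 7 rose, while 13 reached the minimum only at day 0 and 5 only at day 1. MYB15 (AT3G23250), a regulator of stress-induced lignin, fell from 109 to 8.29. NAC factors were split at 12 higher and 15 lower of 65, and NAC042 (AT2G43000), a heat- and ageing-related factor also known as JUNGBRUNNEN1, rose from 45.8 to 281.

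Calcium and kinase signalling genes were more often lower than higher. Of 114 tested calcium signalling genes 39 fell (34.2%) and 19 rose (16.7%, near the 16.2% over all genes). Of 47 MAP kinase cascade genes 16 fell and 3 rose. CML23 (AT1G66400), a calmodulin-like sensor, fell from 93.6 to 14.8. Among the MAP kinase kinase kinases, MAPKKK18 (AT1G05100), which acts in abscisic acid signalling, fell from 52.2 to 3.66, MAPKKK21 (AT4G36950) from 43.2 to 3.08 and MAPKKK15 (AT5G55090) from 40.7 to 7.77. The MAP kinase MPK6 (AT2G43790) was at 77.8 and 79.9 (q = 0.945 in the authors' deposited table). GLR1.3 (AT5G48410), a glutamate receptor-like channel, rose from 1.17 to 12.6. The ubiquitin ligases PUB18 (AT1G10560) and PUB19 (AT1G60190), negative regulators of abscisic acid signalling, fell from 4.93 to 0.643 and from 10.4 to 0.706.

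Heat shock factors (HSFs) switch on chaperone genes when proteins unfold. In the list of heat shock chaperones and factors 14 of 27 fell and 1 rose, and its median level went from 143 FPKM in isolated cells to 812 at day 0, 213 at day 1 and 117 at day 3. Of 17 tested factors 9 fell and none rose. HSFA2 (AT2G26150), which prolongs the heat response, fell from 1257 to 128, after 162 in isolated cells and before 27.6 at day 3. HSFA7A (AT3G51910) fell from 471 to 38.6, with 160.5 in isolated cells and 6.19 at day 3. AT-HSFA7B (AT3G63350) fell from 26.4 to 3.78, HSFB2A (AT5G62020), a repressor-type factor, from 189 to 52.4 and HSFA3 (AT5G03720), which acts downstream of drought signals, from 10.2 to 2.68. HSF A4A (AT4G18880) was at 34.6 and 41.8 (q = 0.568 in the authors' deposited table). The co-chaperone BAG6 (AT2G46240) fell from 667 to 90.0, after 56.1 in isolated cells, and AT5G48570, the immunophilin ROF2, from 316 to 87.1.

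The list of small heat shock proteins, which hold unfolded proteins in solution, did not move as a block. It was drawn by symbol and product name, so it can hold relatives with other roles. Of 30 tested, 7 fell, 3 rose and 20 passed no test. AT1G59860 fell from 1456 to 137 and AT1G54050 from 1447 to 321. The mitochondrial HSP23.6-MITO (AT4G25200) fell from 812 to 175 (q = 0.00183 in the authors' deposited table). The cytosolic HSP17.6A (AT5G12030) was at 3665 and 5206 (q = 0.649) and AT2G29500 at 4497 and 4580.2 (q = 0.983), both in the same table. They were still at 3366 and 3853 FPKM at day 3, against 737 and 1262 in isolated cells. Close copies within this family may share fragments, so the split between members is uncertain.

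Heat shock factors bind inverted repeats of the type GAANNTTC. HSFA7A is shown because its promoter holds 2 such elements (in capitals) and it had the largest drop of the list of heat shock chaperones and factors (RefSeq TAIR10.1, plus strand, chr3:19264891-19265140).
HSFA7A: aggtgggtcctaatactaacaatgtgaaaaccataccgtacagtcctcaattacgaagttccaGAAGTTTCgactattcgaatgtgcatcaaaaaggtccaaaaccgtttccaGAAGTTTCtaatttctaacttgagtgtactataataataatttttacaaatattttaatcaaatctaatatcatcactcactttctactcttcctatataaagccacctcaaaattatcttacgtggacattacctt
The element was found in 7 of 27 promoters of that list (25.9%), and in 9.31% of promoters of all tested genes, 9.35% of those called higher and 10.3% of those called lower.

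Chaperones of the endoplasmic reticulum, where secreted proteins fold, went the other way. Of 22 tested, 9 rose and 2 fell, with a median log2 ratio of 0.68. The disulfide isomerase PDIL1-2 (AT1G77510) rose from 20.4 to 63.4. Lectin chaperones of glycoproteins rose too, calnexin CNX1 (AT5G61790) from 61.0 to 155 (q = 0.00144 in the authors' deposited table) and calreticulin CRT1b (AT1G09210) from 48.7 to 108 (q = 0.00567, same table). SHD (AT4G24190), the HSP90 of the compartment, rose from 43.1 to 101.4 (q = 0.00595 in the authors' deposited table). BIP2 (AT5G42020), an HSP70, was at 126 and 182 (q = 0.252, same table). ATERDJ3A (AT3G08970), a J-domain partner, fell from 111 to 47.7 (q = 0.00183, same table).

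**Figure D4:**
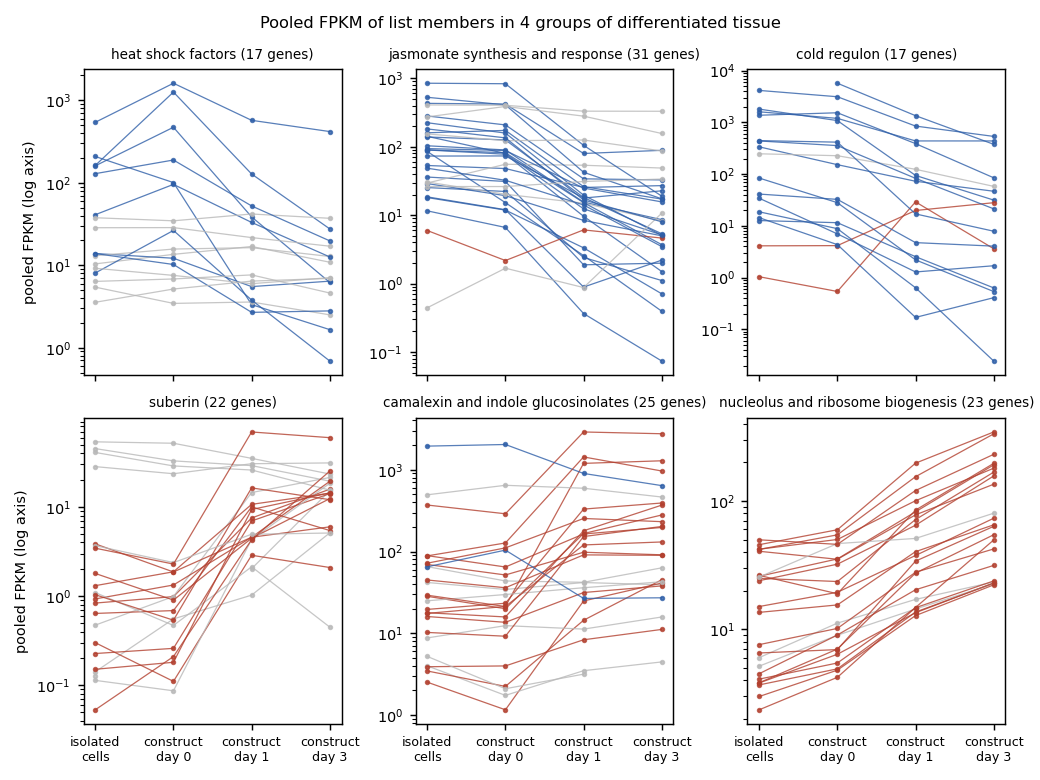
Pooled FPKM on a log axis in isolated differentiated cells and in constructs at day 0, 1 and 3, 1 line per tested member of 6 lists, with genes called higher at day 1 in red, lower in blue and neither in grey. Values under 0.01 FPKM, zeros included, are left as gaps. Jasmonate and cold genes lie highest in cells and at day 0, some heat shock factors peak at day 0, and nucleolar genes are highest at day 3.

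Genes that build and loosen the growing wall made up several of the lists with the most calls to the lower side. Arabinogalactan and fasciclin proteins, heavily glycosylated proteins of the cell surface, had 27 of 42 tested members lower and none higher (median log2 ratio -1.57). AGP31 (AT1G28290) fell from 319 to 34.2, AGP30 (AT2G33790) from 109.6 to 15.6 and FLA8 (AT2G45470) from 36.7 to 4.97. The 2 strongest members of the list among those not called, AGP12 (AT3G13520) and AGP2 (AT2G22470), were at 4664 and 3750.0 (q = 0.628) and at 3846 and 2292 (q = 0.23, both in the authors' deposited table). Xyloglucan endotransglucosylases, which cut and rejoin the polymers that tie cellulose together, had 12 of 25 lower and 2 higher, and 5 reached the minimum only at day 0. XTH18 (AT4G30280) fell from 456 to 95.9, XTH19 (AT4G30290) from 309 to 28.8 and the touch-induced TCH4 (AT5G57560), also named XTH22, from 180.4 to 18.3. Expansins, which loosen walls at acid pH, were split, with 5 higher and 9 lower of 22. EXPA4 (AT2G39700) rose from 44.2 to 491, EXPA10 (AT1G26770) from 3.33 to 57.9 and EXPB3 (AT4G28250) from 1.28 to 27.1. EXPA17 (AT4G01630), active where lateral roots emerge, fell from 83.2 to 13.2.

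Cellulose of the primary wall is made by complexes of CESA proteins. Of 11 tested genes of that list 6 fell and 1 rose. CESA6 (AT5G64740) fell from 70.2 to 24.3, CESA2 (AT4G39350) from 12.6 to 3.40 and CESA1 (AT4G32410) from 81.7 to 40.3 (q = 0.013 in the authors' deposited table). CESA3, listed as CEV1 (AT5G05170), was at 57.7 and 39.5 (q = 0.207, same table). The mannan synthase ATCSLA09 (AT5G03760) fell from 9.65 to 0.852, and of enzymes that supply or transfer wall sugars 14 of 35 fell and none rose, such as the galacturonate-forming epimerase GAE6 (AT3G23820) from 108 to 24.1 and the xylosyltransferase XT2 (AT4G02500) from 37.7 to 9.67. Of 48 tested polygalacturonases and pectate lyases, enzymes that degrade pectin, 18 fell and 5 rose. Among the 48, 10 reached the minimum only at day 0 and 5 only at day 1. The pectate lyase-like gene AT3G27400 rose from 0.341 to 100.7 and was at 270.5 at day 3, and the polygalacturonase PGAZAT (AT2G41850), also named ADPG2 and active in cell separation, rose from 0.435 to 3.84. PELPK1 (AT5G09530), a proline-rich wall protein, rose from 1.23 to 38.5. In the list of extensins and proline-rich wall proteins 6 of 15 fell and 2 rose. LRX2 (AT1G62440) fell from 9.45 to 0.976 and EXT13 (AT5G35190) from 13.3 to 2.62 (q = 0.00183 in the authors' deposited table).

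Aquaporins, the water channels of the plasma and vacuolar membranes, had 18 of 26 tested members lower and 2 higher (median log2 ratio -1.35). TIP2;3 (AT5G47450) of the vacuole fell from 548 to 71.4 and TIP2;2 (AT4G17340) from 262 to 68.3. PIP1;4 (AT4G00430) of the plasma membrane fell from 65.7 to 16.1. SIP1A (AT3G04090), of the endoplasmic reticulum, was at 109.9 and 105 (q = 0.893 in the authors' deposited table). Tubulins had 11 of 16 lower and none higher. TUA4 (AT1G04820) fell from 220.2 to 80.1 and TUB1 (AT1G75780) from 82.6 to 31.4. Tubulin genes are near-identical in part, so their split is uncertain. Of actins, profilins and their partners 9 of 22 fell and 1 rose. ACT8 (AT1G49240) fell from 584 to 253 (q = 0.0141 in the authors' deposited table) and ACT11 (AT3G12110) from 28.9 to 7.20. Both families hold common reference genes: of 18 such genes in the list of reference genes, 6 fell, among them 4 tubulins and ACT8, and 1 rose.

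Marker lists of root cell types describe what the constructs held. At day 0, some markers of each of root hairs, endodermis, xylem and phloem were expressed. Of 27 listed phloem genes 9 stayed under 1 FPKM at both days, as did 5 of 36 listed xylem genes. The tested phloem genes summed to 139 FPKM at day 0, 83.7 at day 1 and 130 at day 3. Their median did not return with the sum, at 2.25, 1.02 and 0.474 FPKM on the same days. Of those that fell, SUC2, APL and BAM3 were at 1.11, 0.717 and 0.301 FPKM at day 1. SCR (AT3G54220), the gene whose promoter and protein form the transgene, was at 12.1 at day 0 and 11.6 at day 1 (q = 0.904 in the authors' deposited table). Isolated cells had 12.4 FPKM and day 3 constructs 14.8. Whether fragments of the fusion transcript count towards SCR is not stated in the labels. Of 40 tested root hair genes 21 fell and 1 rose (median log2 ratio -0.96). ROPGEF3 (AT4G00460), which marks the site of hair outgrowth, fell from 11.5 to 1.117. XTH14 (AT4G25820) fell from 92.0 to 28.2 and RSH2 (AT1G12950), a hair-specific gene, from 91.0 to 14.7. The oxidase of hair tips RHD2 (AT5G51060), also RBOHC, fell from 49.6 to 21.9 (q = 0.0029 in the authors' deposited table). EXPA7 (AT1G12560), a hair expansin, was at 47.0 and 60.4 (q = 0.436, same table). Of 8 tested genes that pattern the epidermis 4 fell and 2 rose, while 3 reached 1 FPKM only at day 0 and 1 only at day 1. MYB66 (AT5G14750), known as WEREWOLF, fell from 4.73 to 0.540 (q = 0.00858, same table), as did MYB23 (AT5G40330) from 6.08 to 1.07 (q = 0.00256, same table). TTG1 (AT5G24520), a WD-repeat protein of the same network, rose from 11.0 to 19.7 (q = 0.0406, same table), and the receptor kinase gene SUB (AT1G11130) rose from 0.351 to 1.53 (q = 0.00883, same table).

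The phloem list had 10 of 18 tested members lower and 1 higher, and 7 were not called. The uncalled ones include TMO6 (AT5G60200, q = 0.249) and BRX (AT1G31880, q = 0.878, both in the authors' deposited table). Of the 18 members, 8 reached the minimum only at day 0, so their direction was set by the filter. Beside SUC2, the phloem identity factor APL (AT1G79430) fell from 4.79 to 0.717 and the receptor kinase BAM3 (AT4G20270) from 3.77 to 0.301. Xylem and secondary wall genes had 12 of 31 lower and 3 higher, with 5 members at 1 FPKM or more only at day 0. The secondary wall cellulose synthases CESA4 (AT5G44030), IRX3 (AT5G17420) and IRX1 (AT4G18780) fell from 14.5 to 3.74, from 12.3 to 3.48 and from 8.95 to 2.43, and the lignin laccase IRX12 (AT2G38080), also named LAC4, from 9.24 to 2.13. In the opposite direction, ACL5 (AT5G19530), the thermospermine synthase that delays xylem maturation, rose from 1.34 to 59.8 and was at 184 at day 3.

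Endodermal cells first lay down the Casparian strip, a lignin ring that seals the cell layer, and later coat themselves with suberin, a polyester of fatty acids and ferulate. Of 17 tested genes of the strip and the endodermis 3 fell and none rose. MYB36 (AT5G57620), the master regulator of the strip, fell from 36.5 to 13.1. The strip's scaffold CASP1 (AT2G36100) was at 451 and 253 (q = 0.0575 in the authors' deposited table) and 56.0 at day 3, and ESB1 (AT2G28670), its dirigent protein, at 224 and 141 (q = 0.207, same table) and 40.1.

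Many suberin genes rose. Of 25 listed, 22 were tested, 12 rose and none fell (median log2 ratio 2.72). Since 13 of them reached 1 FPKM only at day 1, they could be tested only if they were higher there, and the count is to be read with that. The acyltransferases GPAT7 (AT5G06090) and GPAT4 (AT1G01610), which build suberin monomers, rose from 0.538 to 16.4 and from 0.989 to 7.53. The hydroxylase of very long fatty acids CYP86B1 (AT5G23190) rose from 0.181 to 9.37. The feruloyl transferase ASFT, listed as RWP1 (AT5G41040), rose from 2.29 to 69.4, and was the strongest of the named suberin genes at day 1. The exporter ABCG6 (AT5G13580) rose from 1.88 to 10.7, and the suberin regulator MYB39 (AT4G17785), known as SUBERMAN, from 0.689 to 10.03. The elongases KCS1 (AT1G01120) and KCS9 (AT2G16280), which also serve other waxes and lipids, were at 51.9 and 35.1 (q = 0.238) and at 32.9 and 29.1 (q = 0.712, both in the authors' deposited table). In isolated cells the suberin list had a median of 0.985 FPKM, against 0.946, 7.25 and 14.8 at day 0, 1 and 3.

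**Figure D5:**
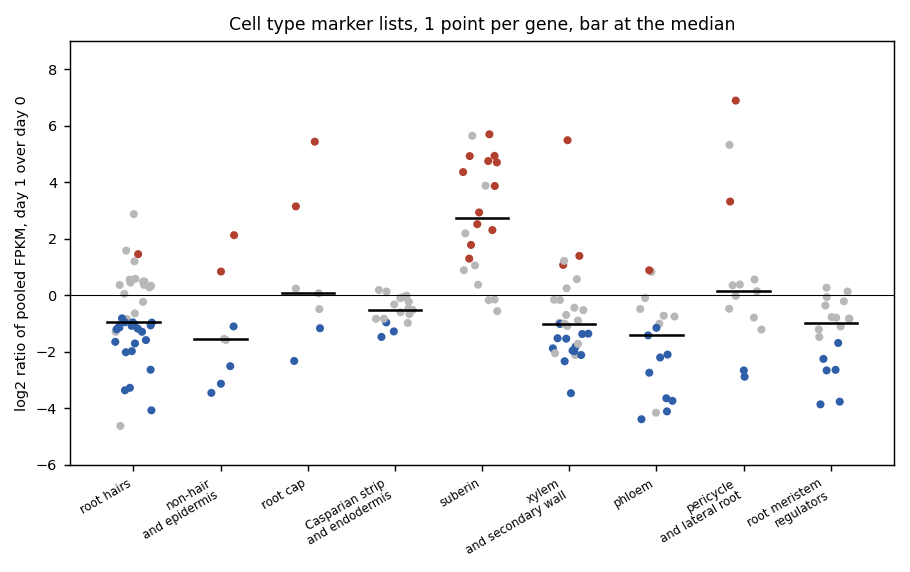
Log2 ratio of pooled FPKM, day 1 over day 0, for each tested member of 9 cell type lists, with genes called higher in red, lower in blue and neither in grey, and the list median as a bar. The suberin exporter gene ABCG2, not called and at almost 0 at day 0, lies above the axis and is not drawn. Most suberin members lie above 0, and most root hair, phloem and xylem members below it.

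Regulators of the root meristem were lower or not called. Of 18 tested, 6 fell and none rose, and 5 could be tested only through their day 0 level. WOX5 (AT3G11260), which marks the quiescent centre, fell from 21.2 to 6.59 (q = 0.00221 in the authors' deposited table). UPB1 (AT2G47270), which sets the border between division and elongation, fell from 163 to 26.2, and the growth factor peptide gene RGF3 (AT2G04025) from 12.3 to 0.844 (q = 0.00355, same table). Of 15 tested regulators of wounding and regeneration 5 fell and 3 rose. WOX11 (AT3G03660), which starts roots from wounded tissue, rose from 1.59 to 8.397 (q = 0.00221, same table) and was at 32.4 at day 3, and LBD29 (AT3G58190), an auxin-induced factor of callus and lateral root formation, rose from 1.44 to 14.3. LBD16 (AT2G42430), its relative, was at 35.5 and 20.5 (q = 0.0517, same table). The wound factor WIND1, listed as RAP2.4 (AT1G78080), fell from 231 to 90.5.

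The list with the largest share of rising members was that of the nucleolus, where ribosomes are assembled. All 23 listed genes were tested, 20 rose and none fell (median log2 ratio 1.39). FIB2 (AT4G25630), fibrillarin, which methylates ribosomal RNA, rose from 23.53 to 71.5. NUC-L2 (AT3G18610), a nucleolin, rose from 4.22 to 14.8. The nucleolar histone deacetylases HDA3 (AT3G44750), also named HD2A, and HD2B (AT5G22650) rose from 18.9 to 84.8 and from 59.6 to 197. PUM24 (AT3G16810), which acts in processing of ribosomal RNA, rose from 7.003 to 27.4, and TOZ (AT5G16750), a subunit of the processome, from 4.91 to 13.6. HD2C (AT5G03740) was at 46.5 and 50.98 (q = 0.781 in the authors' deposited table). Day 3 lay higher again for the list, with a median of 65.1 FPKM after 13.5 in isolated cells, 15.5 at day 0 and 37.5 at day 1.

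Ribosomal protein genes moved little by comparison. Of 270 tested 50 rose (18.5%, near the 16.2% over all genes) and 5 fell, with a median log2 ratio of 0.48 and 231 members above 0. Of 42 tRNA synthetases, which charge tRNAs with amino acids, 14 rose and 1 fell. The alanyl-tRNA synthetase EMB1030 (AT5G22800) rose from 0.991 to 16.7. Families named in the annotation whose members act mostly on organelle RNA were more often called higher than lower: 41 of 110 pentatricopeptide repeat proteins rose and 5 fell, and 11 of 23 mitochondrial transcription termination factors rose and none fell. Of genes whose product name is DEA(D/H)-box RNA helicase family protein, 11 of 17 rose and 1 fell. Helicases under other names are not counted there.

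The site II element, TGGGCC, is common upstream of plant ribosome genes. TOZ is shown because it is the first of the named nucleolar genes whose promoter holds it (in capitals), and it has no telo box, AAACCCTA (RefSeq TAIR10.1, minus strand, chr5:5509362-5509611).
TOZ: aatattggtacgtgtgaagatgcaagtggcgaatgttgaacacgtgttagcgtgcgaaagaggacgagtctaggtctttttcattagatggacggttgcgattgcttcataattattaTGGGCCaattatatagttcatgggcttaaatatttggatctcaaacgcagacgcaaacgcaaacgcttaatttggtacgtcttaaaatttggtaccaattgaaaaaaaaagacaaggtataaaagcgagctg
Counted on both strands, site II stood in 47.8% of the nucleolar list, 48.1% of ribosomal protein genes and 52.2% of DNA replication genes, but also in 33.3% of the heat shock list and in 17.1% of promoters of all tested genes. It stood in 20.21% of promoters of genes called higher and 9.63% of those called lower. The telo box was in 3.58% of all, 4.74% of higher and 1.74% of lower promoters.

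Among cell cycle genes, calls for DNA replication lay on the higher side and calls for mitosis on the lower side. Of 27 listed replication genes, 23 were tested, 10 rose and none fell (median log2 ratio 1.13), and 5 of them reached 1 FPKM only at day 1. The ribonucleotide reductase subunits, which make DNA precursors, rose: RNR1 (AT2G21790) from 2.68 to 11.97, TSO2 (AT3G27060) from 9.32 to 32.5 and RNR2A (AT3G23580) from 14.8 to 34.9. Of the helicase and origin proteins, MCM2 (AT1G44900) rose from 1.56 to 4.42 (q = 0.00323 in the authors' deposited table) and ORC3 (AT5G16690) from 0.503 to 2.2 (q = 0.00387, same table). LIG1 (AT1G08130), the replicative ligase, was at 8.45 and 11.2 (q = 0.328, same table). At day 3 TSO2 was at 150.2 and RNR1 at 39.4. Of 32 mitosis and cytokinesis genes, 20 were tested, 7 fell and none rose. Their levels were low, and 11 of the 20 passed the minimum only at day 0, so that their direction was set by the filter. With a minimum of 5 FPKM the median log2 ratio of the list turned from -1.76 to 0.64, over 2 genes. The B-type cyclin CYCB2;3 (AT1G20610) fell from 2.25 to 0.0773 (q = 0.0253 in the authors' deposited table) and CYCB1;2, listed as CYC1BAT (AT5G06150), from 1.91 to 0.189 (q = 0.0119, same table). SYP111 (AT1G08560), the KNOLLE syntaxin of the cell plate, fell from 4.79 to 1.39 (q = 0.00981, same table) and was at 3.33 at day 3. CDKB2;1 (AT1G76540) was at 3.87 and 1.86 (q = 0.0935, same table).

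E2F factors bind TTTCCCGC. MCM2 is shown because it is a named replication gene that rose and holds the site (in capitals; RefSeq TAIR10.1, plus strand, chr1:16969964-16970213).
MCM2: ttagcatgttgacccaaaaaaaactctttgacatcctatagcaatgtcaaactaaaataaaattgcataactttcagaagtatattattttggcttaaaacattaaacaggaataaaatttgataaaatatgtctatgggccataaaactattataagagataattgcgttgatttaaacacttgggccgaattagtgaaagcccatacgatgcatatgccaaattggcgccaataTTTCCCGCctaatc
The site was in 5 of 23 promoters of the replication list (21.7%), and in 0.574% of promoters of all tested genes, 0.779% of those called higher and 0.313% of those called lower.

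Regulators of entry into the cycle were few among the calls. Of 22 tested 4 rose and none fell. RBR1 (AT3G12280), the retinoblastoma protein that restrains E2F, rose from 8.63 to 21.2. E2FC, listed as ATE2F2 (AT1G47870), which acts as a repressor, rose from 12.6 to 32.2. The inhibitor KRP3, listed as ICK6 (AT5G48820), rose from 1.65 to 12.4. CDKA;1, listed as CDC2 (AT3G48750), rose from 10.4 to 19.6 (q = 0.0249 in the authors' deposited table). In the DNA damage list 2 of 14 rose (14.3%, against 16.2% over all genes). These were the repair gene GMI1 (AT5G24280) from 0.361 to 3.32 and the checkpoint kinase ATR (AT5G40820) from 0.401 to 1.22 (q = 0.00102, same table). The master regulator SOG1 (AT1G25580) was at 10.2 and 8.67 (q = 0.63, same table). Histone genes had 10 of 44 higher and 1 lower, among them the H3 genes AT1G09200 from 89.9 to 258 and AT5G65360 from 83.7 to 229, whose near-identical copies make the split uncertain. Among chromatin regulators 7 of 31 rose, such as MSI1 (AT5G58230), a subunit of chromatin assembly factor 1, from 11.5 to 31.9.

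The proteasome, which degrades marked proteins, had 15 of 44 tested subunits higher and none lower (median log2 ratio 0.48). PAB1 (AT1G16470) of its core rose from 52.6 to 164 and PBD2 (AT4G14800) from 50.2 to 142. RPT1A (AT1G53750) of the regulatory particle was at 222 and 363 (q = 0.137 in the authors' deposited table). Among autophagy genes 4 of 22 rose, a share near that of all genes, and ATG8B (AT4G04620), a membrane tag of autophagosomes, was among them from 29.5 to 99.6.

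Auxin and cytokinin are the hormones that together drive callus and organ formation. Auxin genes were moved in both directions, 11 higher and 6 lower of 31. GH3.3 (AT2G23170), which conjugates auxin to amino acids, rose from 42.2 to 363. The exporter PIN7 (AT1G23080) rose from 6.34 to 34.1. HAT2 (AT5G47370), an auxin-induced homeobox factor, rose from 16.3 to 79.8. Among Aux/IAA repressors 4 rose and 6 fell of 25. IAA26, listed as PAP1 (AT3G16500), rose from 5.11 to 174, the largest rise of that family, and IAA12 (AT1G04550), known as BODENLOS, from 3.52 to 15.6. IAA7 (AT3G23050) fell from 151 to 38.6, IAA2 (AT3G23030) from 619 to 198 and IAA30 (AT3G62100) from 301 to 77.3. Of SAUR genes, linked to cell expansion, 8 of 29 fell and 2 rose. Among the 29, 6 reached the minimum only at day 0 and 3 only at day 1.

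Cytokinin genes had 8 of 21 higher and 1 lower, while 4 reached the minimum only at day 1 and 1 only at day 0. CKX3 (AT5G56970), which degrades the hormone, rose from 1.31 to 21.1, and CKX2 (AT2G19500), listed at 0 at day 0, was at 2.88 at day 1 and 4.71 at day 3. The type-A response regulators ARR9 (AT3G57040) and RR3 (AT2G41310) rose from 19.1 to 63.3 and from 11.1 to 26.7 (q = 0.00144 for RR3 in the authors' deposited table), whereas ARR4 (AT1G10470) was at 143 and 206 (q = 0.215, same table). Of 22 tested ethylene genes 5 rose and 5 fell. ACS2 (AT1G01480) and ACS8 (AT4G37770), which make the ethylene precursor, rose from 7.14 to 304 and from 14.4 to 65.3. EIN2 (AT5G03280), the central signalling protein, rose from 11.3 to 28.4, and the factor EIN3 (AT3G20770) was at 91.2 and 83.7 (q = 0.816 in the authors' deposited table). Among gibberellin and brassinosteroid genes, DWF4 (AT3G50660), a rate-limiting enzyme of brassinosteroid synthesis, rose from 7.52 to 43.3, and BR6OX2 (AT3G30180), which acts late in the pathway, fell from 5.35 to 1.06. GA2OX2 (AT1G30040), which inactivates gibberellin, rose from 12.2 to 55.2.

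Camalexin is the main phytoalexin of Arabidopsis, made from tryptophan, and indole glucosinolates are its sister defence compounds. Of 25 tested genes 16 rose and 2 fell (median log2 ratio 1.21). The genes that rose spanned the pathway. ASA1 (AT5G05730), which commits chorismate to tryptophan, rose from 111 to 254 (q = 0.00834 in the authors' deposited table). CYP79B2 (AT4G39950), which turns tryptophan into indole-3-acetaldoxime, rose from 15.9 to 179. CYP71A12 acts on that aldoxime, and PAD3 (AT3G26830), which forms camalexin, rose from 23.3 to 330.3. On the glucosinolate branch the sulfotransferase SOT17 (AT1G18590) rose from 1.16 to 24.9. The enzymes CYP81F2 (AT5G57220) and CYP81F4 (AT4G37410), which modify the indole ring, rose from 9.22 to 152 and from 127 to 1434. TSB1 (AT5G54810), tryptophan synthase, was at 645 and 594 (q = 0.874 in the authors' deposited table). At day 3 CYP71A12 was at 1287, PAD3 at 392 and CYP79B2 at 369. The factor MYB51 (AT1G18570), which activates indole glucosinolate genes, was at 34.4 and 41.8 (q = 0.53, same table).

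Other defence genes were mixed. In the immune list 8 of 32 rose and 10 fell. PDF1.4 (AT1G19610), a defensin, rose from 6.96 to 80.6. The receptor of bacterial elongation factor, EFR (AT5G20480), rose from 1.28 to 4.39, and NPR3 (AT5G45110), a salicylic acid receptor, fell from 172 to 40.4. By product name, 10 of 16 cysteine-rich receptor kinases rose, among them CRK18 (AT4G23260) from 0.266 to 7.84, and none fell. Grouped in the same way, 9 of 22 receptor-like proteins rose and none fell, and 10 of 28 TIR-type resistance proteins rose and 3 fell. In the list of ER body glucosidases and jacalin lectins, defence proteins of the root, 9 of 18 rose and 3 fell. JAL33 (AT3G16450) rose from 94.1 to 896 and the ER body protein MEB1 (AT4G27860) from 17.1 to 80.1, and the glucosidase BGLU21 (AT1G66270) fell from 209.6 to 34.4.

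Large enzyme families showed changes in both directions. Of cytochrome P450s 40 of 114 rose and 20 fell. CYP82C2 (AT4G31970), which hydroxylates indole carbonyl nitriles, rose from 0.726 to 25.2 and CYP76C2 (AT2G45570) from 1.15 to 49.6, while CYP702A2 (AT4G15300) fell from 6.68 to 0.254. Class III peroxidases had 14 higher and 20 lower of 56. PRXCA (AT3G49110), a close relative of PRXCB, rose from 2.61 to 35.9. DOX1 (AT3G01420), a fatty acid dioxygenase that the annotation names with the peroxidases, rose from 43.7 to 932. Glutathione S-transferases had 11 higher and 12 lower of 40. GSTF6 (AT1G02930), a near copy of GSTF7, rose from 289 to 2896, GSTU26 (AT1G17190) fell from 916 to 156, and GSTU19 (AT1G78380), the strongest of the family at day 0, was at 5157 and 5303 (q = 0.971 in the authors' deposited table). UDP-glycosyltransferases had 21 of 48 lower and 8 higher. UGT74F2 (AT2G43820), which conjugates salicylic acid, fell from 1088 to 223. Laccases had 7 of 12 lower and 3 higher, with LAC7 (AT3G09220) higher from 0.409 to 13.1. Of 8 tested root triterpene genes 4 rose and 2 fell, and the thalianol cluster was among those that rose, with THAS1 (AT5G48010) from 48.6 to 222, CYP708A2 (AT5G48000) from 21.8 to 107 and CYP705A5 (AT5G47990) from 68.8 to 261.

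In central metabolism, of 16 genes of the tricarboxylic acid cycle none rose and 1 fell. Of 29 glycolysis genes 3 rose and 6 fell, a share near the 32.6% called over all genes. The phosphofructokinase PFK3 (AT4G26270) rose from 8.04 to 27.5, and GAPC2 (AT1G13440) was at 569 and 586 (q = 0.95 in the authors' deposited table). Genes of sugar starvation and darkness had 6 of 22 lower and 1 higher. DIN10 (AT5G20250), a raffinose synthase of that response, fell from 231 to 80.1 (q = 0.00323 in the authors' deposited table) and was at 15.8 at day 3, whereas the glucosidase DIN2 (AT3G60140) rose from 226 to 800.0 (q = 0.00858, same table). Among low oxygen genes, the repressor HRA1, listed as AT3G10040, rose from 1.22 to 10.6 and the oxygen-sensing oxidase PCO2, listed as AT5G39890, from 1.28 to 8.80. Pyruvate decarboxylase 1, listed as AT4G33070, rose from 39.7 to 79.3 (q = 0.00678, same table). Of 16 tested genes of that list 4 rose and 1 fell.

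Nutrient genes included opposite movements. In the phosphate list 9 of 23 rose and 3 fell. PHO1 (AT3G23430), which loads phosphate into the xylem, fell from 6.95 to 0.943, and PHO2 (AT2G33770), which promotes its degradation, rose from 2.99 to 12.6. In the iron and zinc list 5 of 25 rose and 7 fell. The regulator bHLH39 (AT3G56980) rose from 5.52 to 36.1, the transporter OPT3 (AT4G16370) from 6.34 to 35.3 and the coumarin enzyme F6'H1, listed as AT3G13610, from 62.6 to 309.7. The iron store FER3 (AT3G56090) fell from 64.6 to 10.6, the zinc pump HMA2 (AT4G30110) from 2.89 to 0.439 and the zinc transporter ZIP5 (AT1G05300) from 14.9 to 2.28. Sulfate genes had 5 of 24 lower (20.8%, against 16.4% over all genes) and none higher. APR1 (AT4G04610), an enzyme of sulfate assimilation, was at 1812 and 713 (q = 0.0952 in the authors' deposited table) after 895 in isolated cells. Of 25 tested clock genes 4 rose (16%, near the 16.2% over all genes) and 8 fell (32%, against 16.4%). The morning factors CCA1 (AT2G46830) and LHY (AT1G01060) rose from 14.8 to 49.8 and from 4.76 to 20.8, and the evening factors ELF4 (AT2G40080) and BOA (AT5G59570) fell from 226 to 49.7 and from 30.7 to 2.91. The hour of sampling is not given in the labels, so time of day and time in the construct cannot be told apart for these genes.

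Transcripts of the organelle genomes are poorly caught by poly(A) selection and are given as a count. Of 34 tested chloroplast transcripts 8 fell and none rose, and of 54 mitochondrial ones 3 fell and 1 rose. Of the chloroplast transcripts 12 reached the minimum only at day 0 and 7 only at day 1, and of the mitochondrial ones 7 and 4. The mitochondrial transcript ATMG01390 had 4656 FPKM at day 0 and 4394 at day 3 but is listed at 0 at day 1, with a q of 1 in the authors' deposited table.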

How the data were processed

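RNA was sequenced in 17 libraries of 6 groups as paired-end reads of 150 bases from a directional kit, per the labels' protocols. HISAT2 and Cufflinks are named by the submitters' processing notes. Their versions and settings, the genome build and the use of strand are missing from the labels and headers, and genes that overlap or lie antisense are therefore uncertain. The authors deposited FPKM values, which by name are scaled to transcript length and library size, per library and pooled per group. The authors' deposited group table also holds a log2 ratio and a q-value for 7 comparisons, per the file headers. No header says which test made the q-values.

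The ratio of day 1 over day 0 was computed from the pooled FPKM columns and differed from the deposited log2 ratio by rounding only. A gene was called at q under 0.05 and at least 1 FPKM in either group. No test of per-gene values was run here, because values on a line of the library table did not follow the pooled level of the gene it names. For 42 genes that stand out from their neighbours, the highest value within 10, 25 or 50 lines was set against the pooled level. Within 1.5-fold lay 8 to 22 of the 42 per library at 25 lines, and 14 to 27 at 50 lines. Libraries were not compared with each other, and limma was not used. Of tested entries, 17612 matched the RefSeq TAIR10.1 table, 7704 with a symbol, and 260 join several genes. No coordinates of the authors' build are given.

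The 104 gene lists and the alternatives were chosen with earlier results of these data known, from symbols and product names, and lists are described by counts and medians without a test. Named genes are the 12 highest and 12 lowest ratios of called genes that have a symbol and reach 10 FPKM, up to 6 called members per list with the lowest q, up to 2 uncalled members highest at day 0, the 3 largest rises and drops in FPKM, and SCR. A self-test on simulated data returned the planted ratios. It covered only the rescaling to the same FPKM sum, the median-ratio factors and the quantile normalization, not the calls or the lists. Replicates come from 3 independent experiments per the series' design text. Python 3.11.15, pandas 2.3.3 and scipy 1.17.1 were used.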

Additional observations from a re-analysis of the deposited data

How the results depend on the processing

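A q under 0.01 in the authors' deposited table left 3805 genes called, 1849 higher and 1956 lower. A minimum of 5 FPKM (4778 called), no minimum (6069), a 2-fold minimum (5031) and, chosen after seeing the data, leaving out joined entries and organelle genes (5792) kept the count within 1.5 times. Among called genes at 2-fold or more, 48.8% were higher as deposited, 56.2% with both groups rescaled to the same FPKM sum, 46.2% with median-ratio factors and 48.8% after quantile normalization. That rescaling moved the median over all tested genes to 0.243, a shift of 0.187, and 9 lists changed sign there, from medians between -0.179 and -0.00187 to values above 0. A minimum of 5 FPKM changed the sign of 8 list medians, among them mitosis (to 0.64) and expansins (to 0.04). No named gene that was called changed direction under any scaling.

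Leaving out each library in turn, the difference of day 1 minus day 0 ranged from -46312 to -2705 in summed FPKM, from 1.66 to 2.21 percentage points in the share of the 10 highest values and from -467 to 578 in the number of genes at 1 FPKM or more, which changed sign without the third library of either group (65 without that of day 0, 578 without that of day 1). The share at lines named for organelle genes differed by 0.747 percentage points, and by 0.159 to 1.36 with a library left out. Because values on a line do not follow the gene it is named for, that share is no measure of organelle transcripts. With libraries paired by replicate number (a replicate block, chosen after seeing the data; no label says that a number marks a shared experiment), the 10 highest values took a larger share at day 1 in 3 of 3 pairs, by 1.07 to 2.92 percentage points with a mean of 1.97 (exact sign-flip permutation p = 0.25, the smallest that 3 pairs allow). The share at lines with organelle names, under the same limit, was higher in 3 of 3 pairs (mean 0.747, same exact p). Summed FPKM and the number of genes were higher in 2 of 3 (exact p = 1.0 each). For single genes no paired analysis could be made, since values on lines of the library table did not follow the pooled levels of the genes named there. For the same reason the planned limma fits on windows of lines, with their window sizes and pseudocounts, were not run. Depth is unknown, so the precision of low values cannot be given.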
